A study of Mus musculus with 8 samples.

Results

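The livers of mice kept on a high-fat diet (HFD) were compared with the livers of mice kept on a normal diet (ND), over both feeding times together. All 8 arrays of the series took part, 4 titled high fat diet and 4 titled normal, and they were chosen by their titles alone. Feeding time, 3 or 9 months, entered the comparison as a covariate, so that a gene was called when its level differed between the diets after the difference between the feeding times had been taken out. Each diet and feeding time was represented by 2 mice, with 1 Agilent single-colour whole-genome array for the liver RNA of each mouse. The mice were male C57BL/6, bought at 5 weeks of age, assigned to groups of matched weight and fed without restriction. ND held 4.8% fat and 3.8 kcal/g, and HFD, a Research Diets product coded D12231, held 58% fat and 5.2 kcal/g. The 2 diets also differed in their carbohydrate and protein, so the comparison is between whole diets. The group is a diet model in intact mice, with no transgene or other treatment. The description of ND 3-month mouse 1 carries the word NASH, which the other ND descriptions lack, and the array was kept with ND as its title and diet group say.

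Long feeding of a fat-rich diet makes mouse hepatocytes store triglyceride in lipid droplets, a state called steatosis. When storage goes on, resident macrophages (Kupffer cells) and macrophages from the blood answer with chemokines and interferon-linked genes, and hepatic stellate cells, which hold vitamin A at rest, turn into collagen-making myofibroblasts. The same organ sets the body's supply of glucose, bile acids and drug-metabolising enzymes, many of them under control of pituitary growth hormone, whose secretion pattern gives male and female livers different sets of genes.

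Levels are given as scaled log2 signal, the log2 of the background-subtracted processed signal minus the array's 75th percentile, so that 0 is the level of that percentile and a step of 1 is a doubling. Values of 4 arrays are always listed as 3-month mouse 1, 3-month mouse 2, 9-month mouse 1 and 9-month mouse 2. A difference is HFD minus ND in scaled log2 signal, with the standard error of the fit. Levels of different genes come from different probes and were not set against each other. The array number, 4 on each diet, limits the precision of every difference, and its p-value reflects variation between the mice and between their arrays, which were not separated.

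The 4 ND arrays shared 1 slide and 1 scan and the 4 HFD arrays shared another slide and scan, so diet and slide cannot be told apart for any value below. The 75th percentile lay between 482 and 597 intensity units on ND arrays and between 185 and 428 on HFD arrays, lowest on HFD 9-month mouse 2 (exact permutation test, two-sided, p = 0.0286, the smallest that 4 against 4 allows). The share of spots well above background, 44.4% to 54.1% on ND and 40.6% to 47.3% on HFD, did not differ beyond its spread (exact permutation test, p = 0.229). Each of 23 hepatocyte markers on the array was tested and 0 were below background on all arrays, with summed levels of 13.32 to 13.62 on ND and 12.90 to 13.57 on HFD (log2 of the summed scaled signal). Of 14 pancreatic enzyme genes 7, Prss1 among them, were not well above background on any array and 5 were tested, and of 12 muscle genes 7, Ckm and Acta1 among them, were not and 4 were tested.

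Of 20165 features tested, 4453 (22.1%) differed between the diets at an adjusted p under 0.05, 2069 (10.3%) higher and 2384 (11.8%) lower on HFD. Features with a gene symbol rose more often than they fell, 1685 (13.1%) against 995 (7.72%) of 12885. Counts in the gene lists below are to be set beside these shares. Features without a symbol, such as transcript models and genomic intervals, went the other way, with 384 (5.27%) higher and 1389 (19.1%) lower of 7280. Among 15898 features well above background on all 8 arrays, 1675 (10.5%) were higher and 1549 (9.74%) lower. The split between rises and falls moved with the scaling: rises made up 46.5% of the calls, but 29.7% when each array was centred on its median instead. The total was 1840 without ND 3-month mouse 2, 2073 without ND 3-month mouse 1, 2376 without ND 9-month mouse 2, 2795 without HFD 3-month mouse 1 and 2386 without the filter on dim probes.

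Pooling the durations added genes that a fit of the 4 group means, with 1 spread shared by all 8 arrays, called at neither duration. In that fit, 1045 features (5.18%) were called at 3 months and 1670 (8.28%) at 9 months. Of the pooled calls, 603 were past the threshold at both, 328 at 3 months alone and 790 at 9 months alone. A further 2732 features (13.5%) were called over both durations and at neither duration alone, 1396 of them higher (6.92%) and 1336 lower (6.63%). Their differences were smaller, which being called at neither duration alone favours. The median size was 0.73 for the added rises against 1.24 for the other rises. It was 1.02 for the added falls against 1.66 for the other falls, and 1670 of the 2732 lay under 1. Both HFD arrays lay above both ND arrays at each duration for 3782 features (18.8%) and below them for 3719 (18.4%). Among these were 2650 of the 2732 added features and 4351 of all 4453 calls, and being called favours such a separation. All 4 HFD arrays lay above all 4 ND arrays for 2320 features (11.5%) and below them for 2816 (14%). 0 features differed in their diet effect between 3 and 9 months after adjustment by limma's test of the interaction, while 1537 had an unadjusted p under 0.05. When the arrays of each duration were fitted alone, with a spread of their own, 2780 features were called by limma at 3 months and 0 at 9 months (7558 and 3907 at an unadjusted p under 0.05). Against those fits, 2468 of the pooled calls were called at neither duration. At 9 months HFD mouse 1 and mouse 2 were the least alike of the 4 pairs (r = 0.968 across features, which are not independent).

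**Figure D1:**
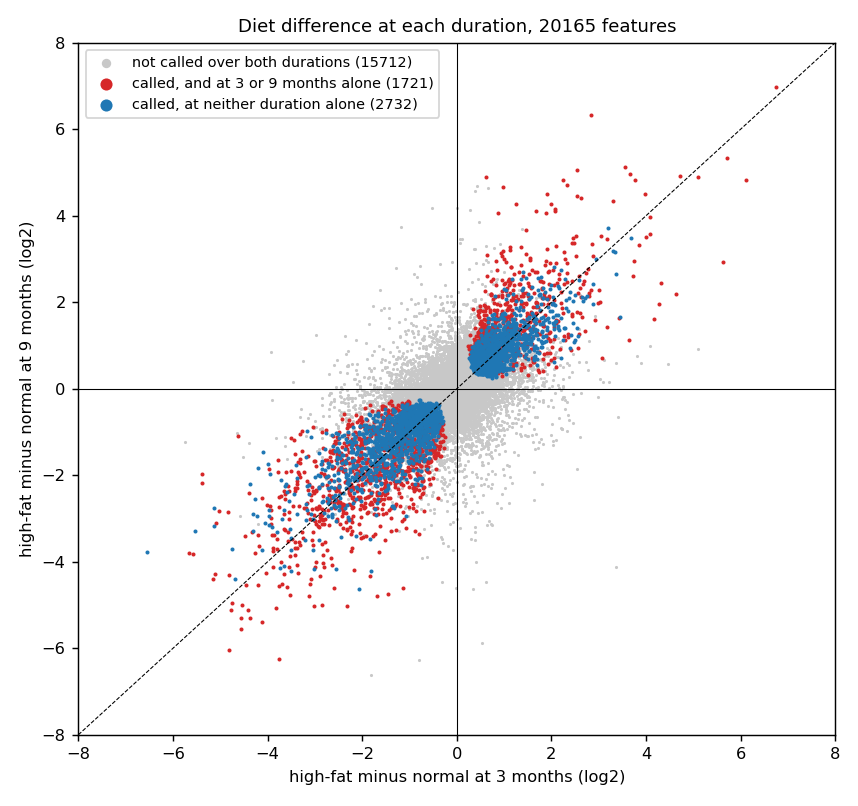
Difference between HFD and ND in scaled log2 signal at 3 months (horizontal axis) and at 9 months (vertical axis) for 20165 features, each point the difference of 2 array means from 2. Blue points, 2732 features called over both durations and at neither alone, sit nearer to the origin than most of the red points, which were called at 1 duration or both as well, and grey points were not called over both durations. The way the blue points were picked favours small differences.

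Genes induced by interferon rose. Of 28 tested interferon-stimulated genes, 14 were higher on HFD and 0 lower, against 10.3% higher over all features, and the median difference of the list was 1.00 against 0.0048 over all features tested. Only 3 of the 14 were called at a single duration too, so 11 belonged to the added genes. Gbp2, a guanylate-binding protein that attacks the membranes around intracellular microbes, read -0.97, -0.83, -0.25 and -1.25 on ND and 2.27, 1.98, 1.49 and 1.00 on HFD. Every HFD array lay above every ND array, and the difference was 2.51 ± 0.30 (adjusted p = 0.00292). Oasl2, a relative of the antiviral oligoadenylate synthetases, read -1.34, -1.39, -0.93 and -1.75 on ND and 0.50, 0.16, 0.95 and 0.31 on HFD, again without overlap (1.83 ± 0.24, adjusted p = 0.00363). Rsad2 (viperin), an enzyme that makes a chain-terminating nucleotide against viruses, read -0.80, -0.68, 0.57 and -0.49 and 0.64, 1.24, 1.77 and 1.82. Its highest ND array, 9-month mouse 1, came close to the lowest HFD array, and the difference was 1.72 ± 0.25 (adjusted p = 0.00546). Ifit2, which binds foreign RNA, was above background on 1 ND and 3 HFD arrays, and its rise was 1.99 ± 0.34 (adjusted p = 0.0094) but 0.68 in the authors' value table. Rises in the list numbered 6 without ND 3-month mouse 2.

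The promoters of these genes were searched for the core of the interferon-stimulated response element, GAAA followed by any 2 bases and a second GAAA, on both strands of the 250 bases before the RefSeq start (GRCm38.p6). Matches may overlap each other. Of 12 interferon-stimulated genes that rose and had a promoter entry, 7 held a match (58.3%), as did 12 of 24 tested genes of the list, 4.53% of all genes that rose, 3.95% of all genes that fell and 2.98% of all 32851 promoter windows. The stretches around the matches are shown for 5 genes that rose and for Isg15, whose difference was 0.90 and missed the threshold (adjusted p = 0.145), so that the spacing and number of the matches can be compared. The letters run 5′ to 3′ along the gene's strand and capitals mark each match. In Gbp2, Gbp3, Ifit3 and Rsad2 the match lies on the opposite strand and is printed as its reverse complement.
Gbp2, chr3:142620579-142620638, plus strand: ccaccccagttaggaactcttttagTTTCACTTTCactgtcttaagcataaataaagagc
Gbp3, chr3:142559974-142560039, plus strand: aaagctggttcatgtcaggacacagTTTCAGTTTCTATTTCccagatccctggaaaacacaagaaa
Ifit3, chr19:34583348-34583441, plus strand: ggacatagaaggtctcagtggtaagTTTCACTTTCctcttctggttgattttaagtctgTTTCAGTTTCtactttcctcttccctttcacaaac
Oas1a, chr5:120907526-120907570, minus strand: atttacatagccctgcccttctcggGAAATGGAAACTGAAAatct
Rsad2, chr12:26456538-26456597, minus strand: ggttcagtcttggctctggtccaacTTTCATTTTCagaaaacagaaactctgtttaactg
Isg15, chr4:156200850-156200921, minus strand: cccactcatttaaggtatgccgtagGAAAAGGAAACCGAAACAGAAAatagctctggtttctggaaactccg
Isg15, which did not pass the test, held 3 overlapping matches, Gbp3, Ifit3 and Oas1a held 2 each, and Gbp2 and Rsad2 held 1 each. A match is a run of letters and was not tested for binding.

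MHC class II genes, which load peptides from outside the cell for display to helper T cells, rose in 5 of 8 tested members and fell in 0, with a median difference of 1.55. H2-Ab1, the beta chain of the I-A molecule, read 3.33, 3.10, 3.84 and 2.23 on ND and 4.75, 5.18, 5.29 and 5.11 on HFD (1.96 ± 0.34, adjusted p = 0.0094). H2-Eb1, the beta chain of I-E, read 2.78, 2.34, 3.33 and 1.79 and 4.20, 4.56, 4.67 and 4.65 (1.96 ± 0.32, adjusted p = 0.00841). In both genes all 4 HFD arrays lay above all 4 ND arrays, and ND 9-month mouse 1 was the highest of its diet. H2-Aa, the alpha chain of I-A, rose by 1.71 ± 0.35 (adjusted p = 0.0163), and H2-DMb1, a part of the peptide loader, by 1.83 ± 0.29 (adjusted p = 0.00721). Rises numbered 3 without ND 3-month mouse 2. Among class II promoters the Y box CTGATTGG, sought on both strands, was present in 2 of 4 genes that rose and in 3 of 6 tested. The box was present in 5.81% of all tested genes, 6.79% of all genes that rose and 3.83% of all windows. Its first base lay at -51 in H2-Aa and at -62 in H2-Eb1, counted from the start, and capitals mark the box.
H2-Aa, chr17:34287842-34287899, minus strand: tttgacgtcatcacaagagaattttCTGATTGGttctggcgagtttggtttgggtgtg
H2-Eb1, chr17:34305780-34305837, plus strand: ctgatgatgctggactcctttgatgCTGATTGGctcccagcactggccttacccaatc

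Chemokines and genes of the NF-kB response rose in 11 of 24 tested members and fell in 0 (median 1.13). Ubd (FAT10), a ubiquitin-like modifier induced by TNF and interferon-gamma, read -2.14, -2.40, -2.17 and -3.22 on ND and 1.42, 1.37, 2.39 and 2.15 on HFD, one of the widest gaps between the diets (4.31 ± 0.33, adjusted p = 0.000846). Cxcl10, which draws CXCR3-bearing T cells, read -0.24, -0.02, 0.91 and -0.07 and 3.07, 2.26, 2.65 and 2.63 (2.51 ± 0.28, adjusted p = 0.00234), and its partner Cxcl9 read -0.04, 0.30, -0.57 and -1.12 and 2.32, 2.34, 1.33 and 0.93 (2.09 ± 0.18, adjusted p = 0.00109). For these 3 genes no HFD array overlapped an ND array. Ccl2, the main chemokine for monocytes, read -2.83, -2.70, -0.37 and -3.06 on ND and 0.45, -0.10, 1.49 and 1.10 on HFD (2.97 ± 0.52, adjusted p = 0.01). ND 9-month mouse 1 stood apart from the other ND arrays, though still below the lowest HFD array. Ccl4 rose by 2.77 ± 0.37 (adjusted p = 0.00411). The number of rises was 6 without the duration covariate.

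The set linked to lipid-laden macrophages rose in 8 of 16 tested members and fell in 0 (median 1.26). Trem2, the lipid-sensing receptor of these cells, read -2.94, -2.87, -1.69 and -2.57 on ND and -0.10, -0.47, 2.52 and 2.04 on HFD (3.51 ± 0.40, adjusted p = 0.00236). The 9-month HFD arrays lay above the 3-month ones, with differences of 2.62 at 3 and 4.41 at 9 months, but the difference between them did not pass the interaction test (adjusted p = 0.494). Itgax (CD11c) rose by 2.97 ± 0.38, Lgals3 (galectin-3) by 1.79 ± 0.28 and Cd63, a tetraspanin of late endosomes, by 1.79 ± 0.33 (adjusted p = 0.0034, 0.00642 and 0.0116). Rises in the list numbered 5 without ND 3-month mouse 1, ND 3-month mouse 2 or HFD 3-month mouse 2 and 5 without the filter on dim probes or without the duration covariate. Of 18 tested markers of resident Kupffer cells 0 rose and 1 fell, Id3, a transcription regulator of these cells (-2.19 ± 0.52, adjusted p = 0.025). The median of this Kupffer list was still 0.79, with 1.51 at 3 months and 0.14 at 9 months, and 14 of the 18 differences were positive. Falls there numbered 0 without ND 3-month mouse 1, ND 3-month mouse 2, ND 9-month mouse 1, HFD 3-month mouse 1 or HFD 3-month mouse 2 and 0 without the filter on dim probes. Clec4f, a lectin of Kupffer cells, stood at 1.09 (adjusted p = 0.0513), Mrc1 (the mannose receptor) at 0.83 (0.059) and Folr2 at 1.18 (0.0784), and 11 of the 18 were called higher once ND 9-month mouse 1 was left out. The difference between the 2 macrophage lists was not tested. The summed level of the Kupffer list was 7.50 to 9.18 on ND and 7.75 to 8.48 on HFD, so the diets overlapped, and Cd163 was not well above background on any array. In RNA of a whole liver, more cells of a type and more RNA per cell cannot be told apart, and this holds for each list of a cell type here.

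Of 13 tested T, NK and B cell markers, 0 rose and 3 fell, although the median of the list was 0.60. Cd4 read 7.29, 7.78, 7.75 and 7.24 on ND and 4.88, 5.73, 4.44 and 4.54 on HFD (-2.62 ± 0.27, adjusted p = 0.00186), with the gene's other probe at -1.55. Its signal lay far above the mean level of the list's members, and whether this probe reads Cd4 alone was not tested. Prf1 (perforin) fell by 1.86 (SE 0.32, adjusted p = 0.00958) and Cd3e by 1.67 (SE 0.39, adjusted p = 0.0235), though Cd3e passed in only 2 of the 8 fits that left out 1 array. Cd2, an adhesion molecule of T cells, stood at 1.21 (adjusted p = 0.0592). The markers Cd8a, Klrb1c and Cd79a were not well above background on any array. The summed level was 7.35 to 7.86 on ND and 4.95 to 6.01 on HFD, most of it the signal of Cd4. The mean level of the members overlapped between the diets, at -1.06 to -0.07 on ND and -1.04 to -0.29 on HFD. Differences were positive in 10 of the 13, so the sum does not stand for the list. Rises in this list numbered 1 without HFD 9-month mouse 1 and 4 without ND 9-month mouse 1. Among 10 neutrophil and monocyte markers Plac8 (1.50 ± 0.30), Ccr2, the receptor for CCL2 (1.91 ± 0.42), and Fcgr4 (1.83 ± 0.50) rose, at adjusted p = 0.0155, 0.0194 and 0.0387. The call of Ccr2 was lost with normexp background correction and in the authors' value table (0.36), and Fcgr4 passed in 2 of the 8 fits that left out 1 array. Elane (neutrophil elastase) fell by 3.48 (SE 0.48, adjusted p = 0.00439) and S100a8 and S100a9, abundant neutrophil proteins, were at 1.35 and 1.47 (adjusted p = 0.181 and 0.148). The count of rises was 1 without ND 3-month mouse 1. The part of these cell types in the interferon, chemokine and class II results was not tested.

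Collagen and matrix genes rose in 18 of 29 tested members and fell in 0 (median 1.06), and the count moved by less than 1.5 times in every setting run. Col1a1, a chain of fibrillar type I collagen, read -1.35, -0.91, -1.70 and -2.40 on ND and 1.58, 1.87, 1.72 and 0.86 on HFD (3.10 ± 0.27, adjusted p = 0.00103). Col3a1, of type III collagen, read 0.31, 0.62, -0.86 and -1.45 and 2.58, 2.54, 2.18 and 1.34 (2.51 ± 0.27, adjusted p = 0.00215). Neither gene had an HFD array within the ND range, and in both the step was as clear at 3 months (2.86 and 2.10) as at 9 months (3.34 and 2.92). Col6a1, of the microfibrillar type VI collagen, read -0.16, 0.14, -0.38 and -0.23 and 1.24, 1.73, 1.58 and 1.23 (1.60 ± 0.17, adjusted p = 0.00208). Timp1, an inhibitor of the proteases that remove collagen, was not well above background on any ND array and was above it on all 4 HFD arrays, at least 7.29-fold higher (adjusted p = 0.00228). Fn1 (fibronectin) at 0.26, Dcn (decorin) at 0.23 and Ccn2 at -0.50 did not pass the test (adjusted p = 0.554, 0.36 and 0.673); these 3 were picked after their values were seen, as were Acta2, S100a8, S100a9, Isg15 and the remaining single changes named to account for a count.

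Stellate cell markers rose in 8 of 13 tested members and fell in 1 (median 0.77). Pdgfrb, the receptor through which platelet-derived growth factor drives these cells, read -0.58, -0.53, -0.26 and -0.54 on ND and 0.10, 0.30, 0.60 and 0.16 on HFD (0.77 ± 0.15, adjusted p = 0.014). Colec11, a collectin of stellate cells, rose by 1.00 ± 0.20 and Rgs5, a G-protein regulator of pericytes, by 1.29 ± 0.26 (adjusted p = 0.0145 and 0.0153). Of the myofibroblast genes, Tagln fell by 2.19 (SE 0.37, adjusted p = 0.00917) and Acta2 stood at 0.70 (adjusted p = 0.0889). The 8 rises depended on single arrays and settings, with 1 without ND 3-month mouse 1, 2 without ND 3-month mouse 2, 3 without ND 9-month mouse 2, 4 without HFD 3-month mouse 2, 5 without HFD 3-month mouse 1 or HFD 9-month mouse 1, 2 with median centring or without the filter on dim probes and 5 without the duration covariate. Of 20 endothelial markers 4 rose and 1 fell (median 0.47), where 13.1% of features with a symbol rose and 7.72% fell. Lyve1, a hyaluronan receptor of sinusoidal and lymphatic endothelium, rose by 1.70 ± 0.31 and Stab2, a scavenger receptor of sinusoids, by 1.18 ± 0.26 (adjusted p = 0.0115 and 0.0196). Fcgr2b, an antibody receptor of sinusoids, rose by 0.83 ± 0.21 and Egfl7 by 0.74 ± 0.22 (adjusted p = 0.0309 and 0.0476). Of the 8 fits that left out 1 array, Fcgr2b passed in 3 and Egfl7 in 0. Rises numbered 1 without ND 3-month mouse 1 or ND 9-month mouse 2 and 2 without ND 3-month mouse 2 or HFD 9-month mouse 1. The summed level of the endothelial list was 6.44 to 7.02 on ND and 7.06 to 7.20 on HFD, and that of the stellate list 6.35 to 7.03 and 6.45 to 6.82. Of 10 cholangiocyte markers, Spp1 (osteopontin) rose (1.30 ± 0.31, adjusted p = 0.0264) while Cftr and Slc4a2 fell by 1.27 and 1.01 (adjusted p = 0.0187 and 0.0116). Spp1 passed in 3 of the 8 fits that left out 1 array and lost its call with median centring, without the filter on dim probes and without the duration covariate, Cftr passed in 5 of the 8, and Slc4a2 kept its call in all of them. Krt7 and Epcam were not well above background on any array. Whether the share of these cells moved the matrix genes was not tested.

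**Figure D2:**
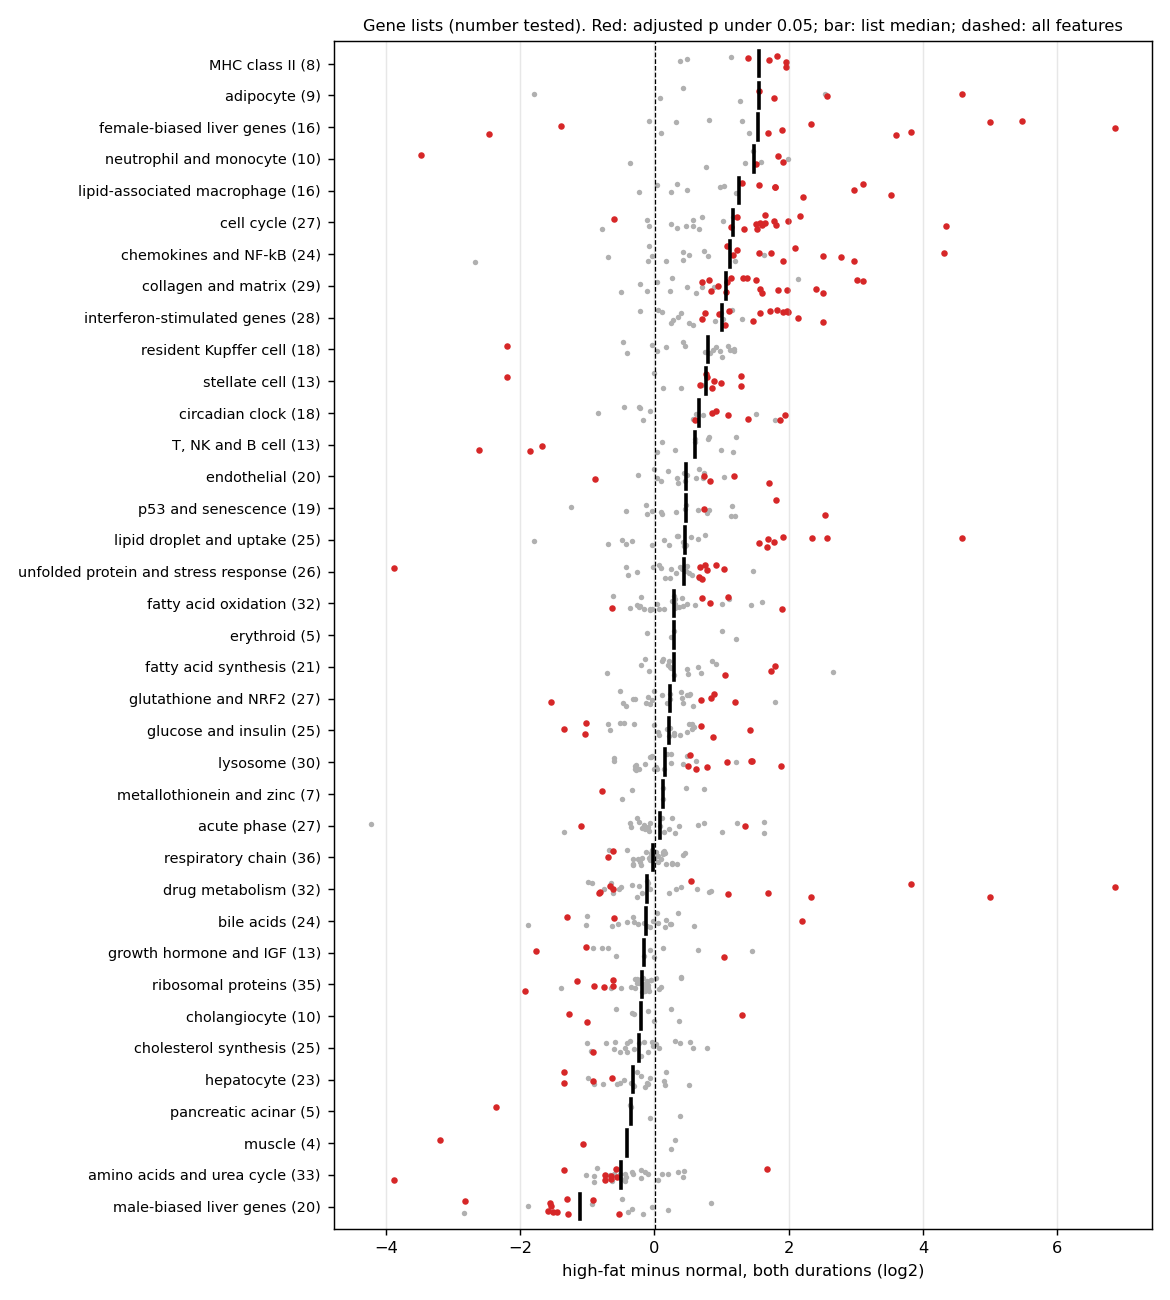
Difference between HFD and ND in scaled log2 signal (horizontal axis) for the tested members of 37 gene lists (rows, number tested in brackets), with called members in red, others in grey and the list median as a bar. Class II, chemokine, matrix and cell cycle lists have medians above 1 and nearly all red points to the right, while the male-biased list has its median at -1.10.

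Genes of DNA replication and cell division rose in 14 of 27 tested members and fell in 1, Cdc45 (median 1.17). Falls numbered 0 when any array but HFD 9-month mouse 2 was left out. They were also 0 with median centring, normexp correction, trend and robust moderation, group means or a replicate block. The same held in the authors' value table, without the filter on dim probes and without the duration covariate. Mcm5 and Mcm3, subunits of the ring helicase that opens replication origins, differed in level between the feeding times as well as the diets. Mcm3 read 0.66, 0.51, -0.60 and -0.88 on ND and 2.55, 2.29, 0.77 and 0.66 on HFD (1.65 ± 0.15, adjusted p = 0.00127). Mcm5 read -1.01, -1.34, -3.14 and -3.61 and 1.59, 1.15, -1.75 and -1.45 (2.16 ± 0.23, adjusted p = 0.00204). In both genes the 3-month arrays lay above the 9-month arrays of the same diet, so the 3-month ND arrays lay close to (Mcm3) or above (Mcm5) the 9-month HFD arrays, although each HFD pair lay above its own ND pair. Cdc20, the activator of the anaphase-promoting complex, rose by 1.60 ± 0.16 (adjusted p = 0.00165). Ccna2 (cyclin A2) was above background on 1 ND and 4 HFD arrays and rose by 1.78 ± 0.20 (adjusted p = 0.00236), or by 0.74 in the authors' value table. Uhrf1, which copies DNA methylation behind the replication fork, was not well above background on any ND array and at least 9.01-fold higher on HFD (adjusted p = 0.00552), with its other probe at 1.34. Cell cycle rises numbered 6 without the duration covariate. The E2F motif TTTCCCGC, sought like the Y box, was present in 0 of 11 cell cycle genes that rose and had a promoter entry. It was present in 1 of 22 tested ones, 1.58% of all genes that rose and 1.72% of all tested genes. Of 19 p53 and senescence genes 3 rose, near the 13.1% of features with a symbol that rose. Phlda3, a brake on AKT, read -0.86, -0.69, -0.59 and -0.76 and 0.66, 0.85, 1.36 and 1.46 (1.81 ± 0.16, adjusted p = 0.00117). Ccng1 rose by 0.74 ± 0.17 and Pmaip1 by 2.55 ± 0.71 (adjusted p = 0.0249 and 0.0408). Btg2 stood at 1.20 (adjusted p = 0.0659). Rises numbered 1 without ND 3-month mouse 1, ND 9-month mouse 2 or HFD 3-month mouse 1 and 5 without HFD 9-month mouse 2.

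Genes of lipid droplets and fatty acid uptake rose in 8 of 25 tested members and fell in 0 (median 0.45). Vldlr, a receptor for triglyceride-rich lipoproteins, read 0.66, 0.01, 0.10 and -0.68 on ND and 2.12, 2.47, 2.53 and 2.35 on HFD, with no overlap (2.34 ± 0.27, adjusted p = 0.00247), and its other probe gave 1.90. Fabp4, a fatty acid carrier of fat cells and macrophages, read 0.69, 0.86, 0.78 and 0.31 and 2.71, 2.64, 3.07 and 4.50 (2.57 ± 0.39, adjusted p = 0.00593). Cidea, a droplet-fusing protein of fat tissue, read -1.70, -0.88, 1.24 and -2.86 and 1.49, 1.62, 6.34 and 4.69. Most of its difference came from 9 months (2.84 at 3 and 6.32 at 9 months), ND 9-month mouse 1 almost reached the 3-month HFD arrays, and the pooled 4.58 ± 1.05 (adjusted p = 0.0228) was lost without ND 3-month mouse 1 or HFD 9-month mouse 1. Cd36, the fatty acid transporter, rose by 1.67 ± 0.32 and Plin4, a droplet coat protein, by 1.91 ± 0.37 (adjusted p = 0.013 and 0.0131). Rises numbered 4 without ND 3-month mouse 1 or HFD 9-month mouse 1, 5 without HFD 3-month mouse 1 or HFD 3-month mouse 2 and 5 without the filter on dim probes. Of 9 tested fat cell markers 4 rose, Fabp4, Cidea, Lpl and Cidec, all of them in the droplet list too, whereas Adipoq, Lep, Plin1 and Ucp1 were not well above background on any array.

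Of 21 genes of fatty acid synthesis 3 rose and 0 fell, where 13.1% of features with a symbol rose, a share near theirs. Srebf1, the transcription factor that drives them, read 2.89, 2.15, -1.93 and -1.78 on ND and 3.25, 3.49, 0.87 and 0.92 on HFD. The 9-month ND arrays lay far below the rest, so its difference was 0.85 at 3 and 2.75 at 9 months (1.80 ± 0.39 pooled, adjusted p = 0.0196, interaction adjusted p = 0.372). Pklr (liver pyruvate kinase) rose by 1.73 ± 0.39 and Pgd, of the pentose phosphate path, by 1.05 ± 0.23 (adjusted p = 0.0212 and 0.0193). The desaturase Scd2 stood at 0.86 (adjusted p = 0.0518). Rises numbered 0 without ND 9-month mouse 2, 1 without ND 3-month mouse 2, 5 without HFD 3-month mouse 1, 0 without the duration covariate and 5 in the fit of group means. Of 32 genes of fatty acid oxidation 4 rose and 1 fell, near or below the shares over all features. Hadh and Hadhb, enzymes of the mitochondrial beta-oxidation spiral, rose by 0.83 ± 0.13 and 0.70 ± 0.13 (adjusted p = 0.00647 and 0.0118). Vnn1, a pantetheinase, rose by 1.09 ± 0.26 and Acot3, a thioesterase, by 1.90 ± 0.52 (adjusted p = 0.0248 and 0.0393). Rises numbered 1 without ND 3-month mouse 2, 2 without ND 3-month mouse 1, HFD 3-month mouse 1 or HFD 3-month mouse 2, 1 without the filter on dim probes or without the duration covariate, 2 with median centring, 7 in the authors' value table or in the fit of group means, 8 with quantile normalization or with normexp background correction and 11 with array weights. Of 25 genes of cholesterol synthesis 0 rose and 1 fell, Tm7sf2 (by 0.92, SE 0.26, adjusted p = 0.0415). Tm7sf2 passed in 2 of the 8 fits that left out 1 array and lost its call with quantile normalization, without the filter on dim probes, without the duration covariate and in the fit of group means. The list median was -0.24, but 0.13 without HFD 3-month mouse 1, with Acat2 at 0.78 and Mvk at -0.60 (adjusted p = 0.0755 and 0.152).

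Cytochrome P450 genes of the 2b family held the largest rise among the named genes. Cyp2b13, a steroid hydroxylase found mainly in female mouse liver, read -0.18, -2.67, -1.72 and -3.58 on ND and 5.95, 4.71, 5.55 and 3.09 on HFD, a difference of 6.86 ± 0.77 (116-fold, adjusted p = 0.00234). Its lowest HFD array, 9-month mouse 2, lay far above its highest ND array, 3-month mouse 1. Cyp2b9, also female-biased, rose by 5.00 ± 0.67 (adjusted p = 0.00417). Cyp2b10, the classic target of the constitutive androstane receptor, read 4.27, 2.73, 3.09 and 0.63 and 6.93, 6.67, 6.59 and 5.82 (3.82 ± 0.60, adjusted p = 0.00666), and Nr1i3, which encodes that receptor, rose by 1.09 ± 0.20 (adjusted p = 0.0119). The Cyp2b genes are closely related neighbours on chromosome 7, and whether the probe of 1 also reads another was not tested. Of 32 drug metabolism genes 7 rose and 4 fell, where 13.1% and 7.72% of features with a symbol did. The falls were Cyp2c29, Cyp2c54, Ces1f and Ces2a. Falls numbered 0 without ND 3-month mouse 1 or ND 3-month mouse 2, 1 without HFD 3-month mouse 1, 2 without ND 9-month mouse 2, HFD 3-month mouse 2 or HFD 9-month mouse 1, 0 without the filter on dim probes or without the duration covariate, 1 with quantile normalization and 2 with normexp background correction or in the authors' value table. Rises numbered 4 without ND 3-month mouse 1, ND 3-month mouse 2, ND 9-month mouse 2, HFD 3-month mouse 1 or HFD 3-month mouse 2 and 4 without the filter on dim probes.

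Genes with a sex bias in mouse liver changed in these male livers. Of 16 female-biased genes 8 rose and 2 fell (median 1.55). The organic anion transporters Slc22a29 and Slc22a27, neighbours on chromosome 19, read -2.00, -2.14, -1.42 and -3.04 and -1.77, -2.10, -0.73 and -2.70 on ND and 1.84, 2.17, 1.63 and 1.07 and 1.76, 2.08, 1.90 and 1.33 on HFD. Neither had an overlap between the diets, and the differences were 3.82 ± 0.35 and 3.59 ± 0.41 (adjusted p = 0.00127 and 0.00247). Hao2, a peroxisomal hydroxyacid oxidase, read -3.73, -5.25, -5.52 and -6.11 and 1.51, 1.74, 0.37 and -2.35 and was above background on 1 ND and 4 HFD arrays. Its difference was 5.47 ± 0.64 (adjusted p = 0.0026) here and 2.48 in the authors' value table. Going down were Cyp17a1 and Cyp3a16, by 2.47 and 1.39 (adjusted p = 0.0137 and 0.0274). The number of rises was 5 without ND 3-month mouse 1, ND 3-month mouse 2, HFD 3-month mouse 1, HFD 3-month mouse 2 or HFD 9-month mouse 1 and 5 without the filter on dim probes or with probes above background on all 8 arrays. Of 20 male-biased genes 0 rose and 10 fell (11.8% of all features fell). Elovl3, a fatty acid elongase, read 4.71, 5.24, 4.57 and 4.71 on ND and 2.64, 1.47, 1.57 and 2.28 on HFD (-2.82 ± 0.29, adjusted p = 0.00188). C6, of the terminal complement complex, fell by 1.55 (SE 0.29), Gstp1, a glutathione transferase, by 1.54 (SE 0.28) and Cyp7b1, an oxysterol hydroxylase, by 1.31 (SE 0.29), at adjusted p = 0.0116, 0.0116 and 0.0215, and the second probe of Gstp1 gave -1.63. The count of falls was 3 without ND 3-month mouse 1, ND 3-month mouse 2 or ND 9-month mouse 2, 5 without HFD 9-month mouse 1, 6 without HFD 3-month mouse 1 or HFD 3-month mouse 2 and 3 without the filter on dim probes. In the growth hormone list Igf1, the liver's main endocrine product of that axis, read 7.51, 7.50, 7.17 and 7.30 and 6.13, 6.32, 6.25 and 6.70 (-1.02 ± 0.17, adjusted p = 0.00889). Stat5a, a carrier of the growth hormone signal, rose by 1.03 ± 0.18, Onecut1 fell by 1.76 (SE 0.49) and Cish, a feedback inhibitor, stood at -0.92 (adjusted p = 0.0104, 0.042 and 0.0647). Onecut1 passed in 2 of the 8 fits that left out 1 array. It lost its call with quantile normalization, without the filter on dim probes, without the duration covariate and in the fit of group means. The other 3 Igf1 probes gave a mean of -0.38.

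Enzymes of amino acid and nitrogen handling fell in 8 of 33 tested members and rose in 1 (median -0.50). The list median was -0.10 at 3 months and -0.74 at 9 months, and the difference between these medians was not tested. Ass1, of the urea cycle, read 9.29, 9.45, 8.84 and 8.43 on ND and 8.60, 8.78, 7.92 and 7.74 on HFD. The 9-month arrays were lower in both diets, so the diets overlapped between durations but not within them (-0.74 ± 0.15, adjusted p = 0.0141). Tat, which starts tyrosine breakdown, fell by 1.35 (SE 0.27), Gnmt, a methyl-group buffer, by 0.64 (SE 0.12) and Asns, which makes asparagine, by 3.88 (SE 0.74), at adjusted p = 0.0153, 0.0138 and 0.0132. The count of falls was 2 without ND 3-month mouse 2, 5 without ND 3-month mouse 1, ND 9-month mouse 1, ND 9-month mouse 2, HFD 3-month mouse 2 or HFD 9-month mouse 1, 2 with quantile normalization, with median centring or without the filter on dim probes and 4 with normexp background correction, in the authors' value table or without the duration covariate. Of 25 genes of glucose and insulin handling 3 rose and 3 fell, near the shares over all features. The falls were Igf1, Irs2, the insulin receptor adaptor (-1.03 ± 0.25, adjusted p = 0.0262), and G6pc, which releases glucose from glucose-6-phosphate (-1.35 ± 0.36, adjusted p = 0.0363). Ugp2, of glycogen synthesis, was among the rises (0.87 ± 0.23, adjusted p = 0.0336). Rises numbered 0 without ND 3-month mouse 1, ND 3-month mouse 2 or HFD 3-month mouse 1, 1 without ND 9-month mouse 1, ND 9-month mouse 2 or HFD 9-month mouse 1, 0 without the filter on dim probes or without the duration covariate, 1 with median centring and 6 with quantile normalization, with normexp background correction or in the authors' value table. Falls numbered 1 without ND 3-month mouse 2, ND 9-month mouse 2, HFD 3-month mouse 1 or HFD 9-month mouse 1 and 1 without the filter on dim probes or with array weights. Of the hepatocyte markers 4 of 23 fell and 0 rose, where 7.72% of features with a symbol fell and 11.8% of all features. Serpina3k, a serine protease inhibitor, read 9.88, 10.15, 9.81 and 9.91 and 9.02, 8.88, 9.19 and 9.03 (-0.91 ± 0.14, adjusted p = 0.00648). Hnf4a, the hepatocyte master regulator, fell by 0.64 (SE 0.13, adjusted p = 0.0155), and G6pc and Tat are named above. Their count was 2 without ND 3-month mouse 2, 8 without HFD 9-month mouse 2, 1 with quantile normalization, 2 with normexp background correction, in the authors' value table or without the filter on dim probes and 8 with array weights. The list median of -0.32 shrank to -0.06 with quantile normalization.

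Bile acid genes changed in 3 of 24, a smaller share than the 22.1% over all features. Slc51b, an exporter on the blood side, rose (2.20 ± 0.56, adjusted p = 0.0311), with a call in 2 of the 8 fits that left out 1 array, and Hsd3b7 and Cyp7b1, of its synthesis, fell by 0.60 and 1.31 (adjusted p = 0.0168 and 0.0215). Falls numbered 0 without ND 3-month mouse 1 or ND 3-month mouse 2, 1 without ND 9-month mouse 2, HFD 3-month mouse 1 or HFD 9-month mouse 1, 4 without HFD 9-month mouse 2, 0 without the filter on dim probes, 1 with quantile normalization, with normexp background correction, in the authors' value table or without the duration covariate and 4 in the fit of group means. The list median turned from -0.13 to 0.06 with quantile normalization. Baat, which conjugates bile acids, stood at -1.01 (adjusted p = 0.0633). Of 27 glutathione and NRF2 genes 4 rose and 1, Gstp1, fell, near or below the shares over all features. Nfe2l2, which encodes NRF2, read 3.51, 3.72, 3.72 and 3.63 and 4.52, 4.44, 4.69 and 4.46 (0.88 ± 0.12, adjusted p = 0.00472). Gss, which makes glutathione, and Nqo1, an NRF2 target, rose by 0.70 ± 0.13 and 0.83 ± 0.19 (adjusted p = 0.0122 and 0.0214). Rises numbered 1 without ND 3-month mouse 2, 2 without ND 3-month mouse 1 or ND 9-month mouse 2, 1 without the filter on dim probes and 2 with median centring. Of 26 genes of the unfolded protein response 7 rose and 1 fell, Asns. Canx (calnexin), a folding chaperone of the endoplasmic reticulum, read 5.09, 5.04, 5.02 and 4.84 and 5.72, 5.62, 5.67 and 5.63 (0.66 ± 0.12, adjusted p = 0.0103), and Dnajc3 and Ddit3 (CHOP) rose by 0.68 ± 0.15 and 0.92 ± 0.21 (adjusted p = 0.0196 and 0.0224). Rises in the list numbered 1 without ND 9-month mouse 2 or HFD 3-month mouse 1, 2 without ND 3-month mouse 2, 3 without HFD 9-month mouse 1, 4 without ND 3-month mouse 1 or ND 9-month mouse 1, 0 with median centring or without the filter on dim probes and 4 with array weights or without the duration covariate.

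Lysosomal genes rose in 8 of 30 tested members (median 0.16), where 13.1% of features with a symbol rose. Hexa, which takes part in the breakdown of gangliosides, read 3.20, 3.25, 3.44 and 3.00 on ND and 4.58, 4.17, 4.95 and 4.92 on HFD. The diets did not overlap (1.43 ± 0.19, adjusted p = 0.00372). Atp6v0d2, a proton pump subunit of osteoclasts and macrophages, and Ctsk, a collagen-cutting cathepsin, rose by 1.88 ± 0.29 and 1.08 ± 0.21 (adjusted p = 0.00625 and 0.0141). Rises numbered 3 without ND 3-month mouse 1, 4 without ND 3-month mouse 2 or ND 9-month mouse 2, 5 without HFD 3-month mouse 1 or HFD 9-month mouse 1 and 4 with median centring or without the filter on dim probes. Clock genes rose in 7 of 18 members and fell in 0 (median 0.67). Nr1d2 (REV-ERB beta), a repressor of clock genes, rose by 0.91 ± 0.20, Per3 by 1.95 ± 0.45 and Tef by 0.86 ± 0.21 (adjusted p = 0.0193, 0.0232 and 0.0279). Their count was 0 without ND 3-month mouse 2, 2 without ND 3-month mouse 1, HFD 3-month mouse 1 or HFD 9-month mouse 1, 4 without ND 9-month mouse 1, ND 9-month mouse 2 or HFD 3-month mouse 2, 1 without the filter on dim probes, 3 with median centring and 4 without the duration covariate, and the labels used here give no hour of tissue collection, so its part was not tested.

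Few members were called among the acute phase genes (1 higher and 1 lower of 27), metallothionein and zinc genes (0 and 1 of 7) and the respiratory chain (0 and 2 of 36). Saa3, an acute phase protein made outside hepatocytes too, rose (1.35 ± 0.38, adjusted p = 0.0436), and Serpina3m fell by 1.09 (SE 0.13, adjusted p = 0.00299). Acute phase rises numbered 0 without ND 3-month mouse 1, ND 3-month mouse 2, ND 9-month mouse 2, HFD 3-month mouse 1 or HFD 9-month mouse 1, 2 without HFD 9-month mouse 2, 6 without ND 9-month mouse 1, 0 with median centring, without the filter on dim probes or without the duration covariate, 2 with quantile normalization, with trend and robust moderation, with array weights or in the fit of group means and 3 with normexp background correction or in the authors' value table, and falls 2 without ND 9-month mouse 2, 5 without HFD 9-month mouse 2 and 2 with normexp background correction or in the authors' value table. Slc30a1, a zinc exporter, fell by 0.79 (SE 0.16, adjusted p = 0.0171), and Cox5b and Atp5o by 0.62 and 0.70 (adjusted p = 0.0231 and 0.0241). Respiratory chain rises numbered 5 with quantile normalization or normexp correction and 6 in the authors' value table, and falls 0 without ND 3-month mouse 1, ND 3-month mouse 2, ND 9-month mouse 2 or HFD 3-month mouse 1 and 1 without HFD 3-month mouse 2 or HFD 9-month mouse 1. Ribosomal protein genes fell in 6 of 35 members and rose in 0 (median -0.18), where 7.72% of features with a symbol fell and 11.8% of all features. The falls were led by Rpl7a (-1.93 ± 0.31, adjusted p = 0.00767, other 3 probes -1.19) and Rpl4 (-0.90 ± 0.17, adjusted p = 0.0121). The sign of the list's median turned to 0.01 with quantile normalization and 0.06 with normexp correction or in the authors' value table, so no direction was read from it. Falls there numbered 2 without ND 3-month mouse 1 or ND 3-month mouse 2 and 3 without ND 9-month mouse 2, HFD 3-month mouse 1 or HFD 9-month mouse 1. Of the red cell genes 0 of 5 were called, with Hba-a1 at 1.00 and Alas2 at 0.29 (adjusted p = 0.167 and 0.5). In the muscle list Myh2 and Tnnc2 fell and were not well above background on any HFD array, and in the pancreatic list Clps fell by 2.36 (SE 0.39, adjusted p = 0.00837) while its other probe gave 0.48.

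Beyond the lists, the largest rises on probes above background on all 8 arrays were Cyp2b13, Cidea, Ubd, Slc22a29, Cyp2b10, Slc22a27, Trem2, Ly6d, Adgrv1, Osbpl3, Col1a1 and Ccl2. Ly6d, a surface protein of the LY6 family, read -1.73, -2.11, 1.44 and -1.06 on ND and 1.10, 1.77, 3.40 and 3.29 on HFD (3.25 ± 0.49, adjusted p = 0.0061). ND 9-month mouse 1 lay above HFD 3-month mouse 1. Osbpl3, an oxysterol-binding protein relative, read -1.31, -1.29, -1.92 and -3.15 and 0.39, 0.99, 2.19 and 1.30 (3.14 ± 0.53, adjusted p = 0.00879), with its other probe at 2.88, and Adgrv1, a very large adhesion receptor, rose by 3.19 ± 0.53 with its other probe at 1.17 (adjusted p = 0.00847). Of these 12, all but Cidea stayed past the threshold when any of the 8 arrays was left out. Their choice, for size and for HFD arrays on 1 side of ND arrays at each duration, favours this.

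**Figure D3:**
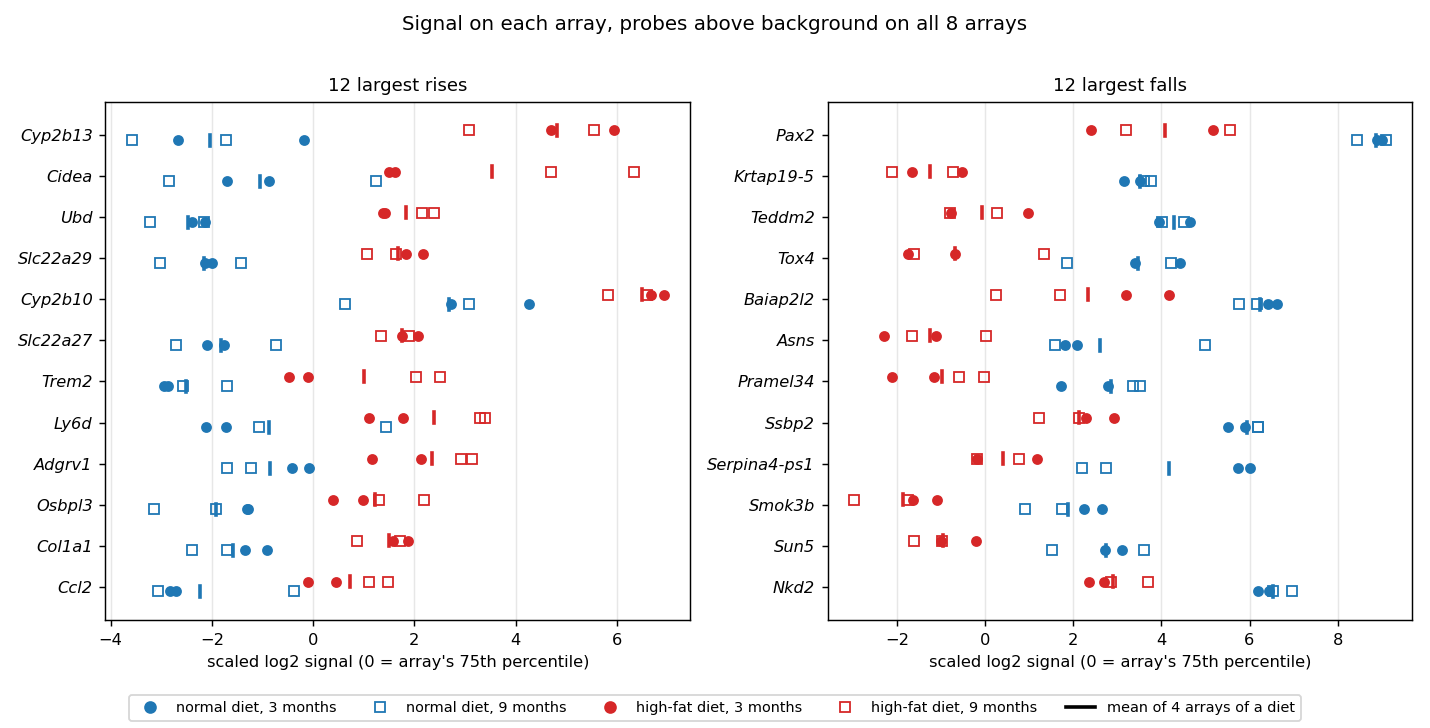
Scaled log2 signal (horizontal axes) of the 12 largest rises and the 12 largest falls on each of the 8 arrays, with ND in blue, HFD in red, 3 months filled, 9 months open and the mean of each diet's 4 arrays as a bar. The genes were chosen among calls with HFD arrays on 1 side of ND arrays at each duration, so much of the separation follows from that choice. The diets are apart over all arrays in every gene shown but Ly6d, where ND 9-month mouse 1 lies above HFD 3-month mouse 1.

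Each change above was read from 1 probe a gene. Among called genes with further probes anywhere on the array, the other probes moved the same way for 422 of 515 rises (81.9%) and for 167 of 356 falls (46.9%), where the median of the other probes was 0.08 against -1.18 for the probes used. Among further probes that passed the filter on dim values, the counts were 300 of 370 rises (81.1%) and 136 of 192 falls (70.8%), with a median of -0.32 for the falls. The 12 falls were Pax2, Krtap19-5, Teddm2, Tox4, Baiap2l2, Asns, Pramel34, Ssbp2, Serpina4-ps1, Smok3b, Sun5 and Nkd2. Pax2, a transcription factor of kidney development, read 8.90, 9.00, 8.45 and 9.10 on ND and 5.17, 2.41, 3.19 and 5.57 on HFD (-4.78 ± 0.70, adjusted p = 0.00555), yet its other 2 probes gave a mean of 0.62. Teddm2 and Pramel34 likewise fell by 4.37 and 3.82 on the probe used, with other probes at 0.50 and 1.70. Tox4, Smok3b and Nkd2 fell by 4.15, 3.75 and 3.63 with other probes at -0.14, -0.05 and -0.40. Ssbp2, a DNA-binding adaptor, read 5.51, 5.89, 6.18 and 6.19 and 2.29, 2.91, 1.21 and 2.13 (-3.81 ± 0.36, adjusted p = 0.00133), and here the other 2 probes gave -2.63. Serpina4-ps1, a serpin pseudogene expressed in liver, read 5.74, 6.01, 2.20 and 2.73 and 1.17, -0.19, 0.77 and -0.19 (-3.78 ± 0.68, adjusted p = 0.0109), with a larger step at 3 months (-5.39) than at 9 (-2.17) that did not pass the interaction test (adjusted p = 0.406). Asns read 2.08, 1.81, 1.59 and 4.98 and -2.29, -1.12, -1.67 and 0.02, with ND 9-month mouse 2 far above the other ND arrays. What sets the other probes apart was not tested.

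**Figure D4:**
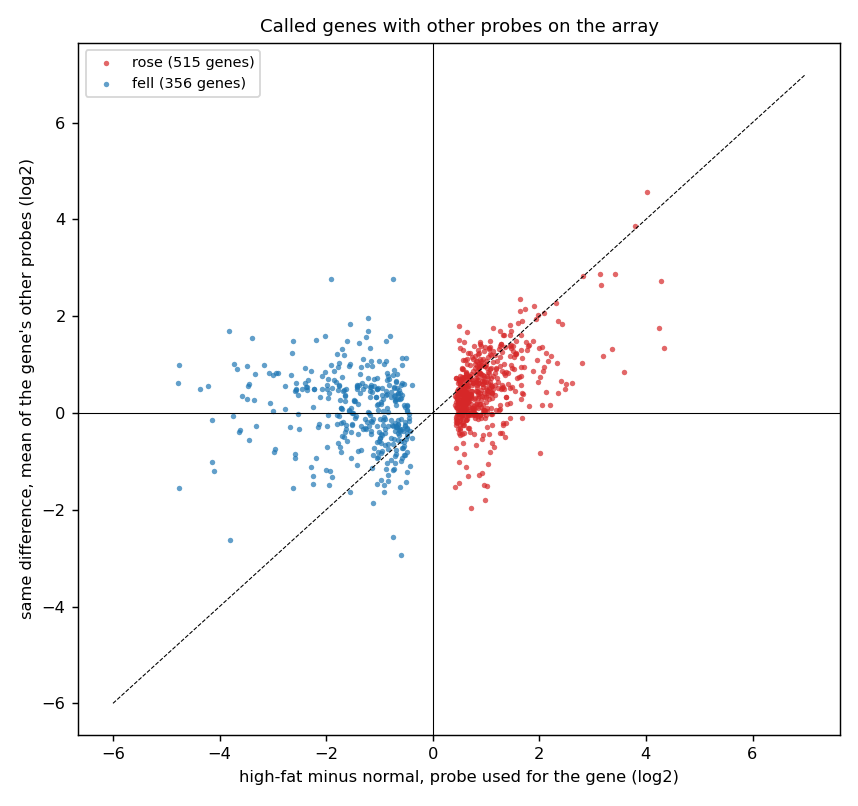
For called genes with other probes on the array, the difference between HFD and ND on the probe used (horizontal axis) against the mean difference of the gene's other probes (vertical axis), both in scaled log2 signal, with 515 rises in red and 356 falls in blue. Rises follow the dashed line of equality loosely and 81.9% lie above 0, while 46.9% of the falls lie below 0 on the vertical axis; these other probes include dim ones, and among those that passed the filter 70.8% of the falls moved the same way.

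Some genes could be given only a bound, because 1 diet left them not well above background on all 4 of its arrays. The bound sets the brighter mean against the probe's values on the dimmer arrays. Any value below the lowest spot well above background on its array was raised to that spot's level. A stricter level would give smaller bounds. Each bound is for means of 4 arrays, not for each duration, and the adjusted p-values beside the bounds come from values that were not raised. Besides Uhrf1 and Timp1, Egr2, an early response transcription factor, was at least 6.2-fold higher on HFD, Tmem45b at least 5.08-fold and Sema4d, a semaphorin of leukocytes, at least 4.15-fold (adjusted p = 0.00103, 0.00167 and 0.00182). Lower on HFD were Phkg1, the muscle form of a phosphorylase kinase subunit (at least 5.26-fold), Hes5, a NOTCH target (at least 5.23-fold), the non-coding Meg3 (at least 5.06-fold), Srgap3 (at least 4.53-fold) and Hyal6 (at least 4.42-fold), at adjusted p = 0.00427, 0.00301, 0.0151, 0.00189 and 0.00752. On ND, Hyal6 read -0.61, 0.55, -3.19 and -2.09. Its value on ND 9-month mouse 1 lay below the level of -2.77 to which HFD 9-month mouse 2 was raised, so its bound does not hold array by array. Meg3 read -1.07, -1.83, -2.70 and 1.05 on ND, with 9-month mouse 2 the highest. The other probe of Phkg1 gave 1.01, those of Meg3 -0.35 and those of Srgap3 -1.20, whereas Hes5 and Hyal6 had no other probe. These bounds hold for the scaled processed signal. In the authors' value table the fitted differences of the 10 genes were over 1.5 times smaller, 0.78 to 1.51 for the rises and -1.44 to -1.01 for the falls. Meg3 lost its call there, with normexp correction and with a floor on dim values, and Hyal6 lost its call with the floor.

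The moderate changes that pooling added were drawn from genes with a difference under 1. Gnptab, an enzyme that tags proteins for the lysosome, read -0.03, 0.01, -0.21 and -0.17 on ND and 0.78, 0.84, 0.91 and 0.47 on HFD (0.85 ± 0.14, adjusted p = 0.00765). Irgm2, an interferon-induced GTPase, read 3.14, 3.27, 3.93 and 3.36 and 4.21, 4.17, 4.46 and 4.56 (0.93 ± 0.16, adjusted p = 0.00859). Selenot, a selenium protein of the endoplasmic reticulum, read 3.87, 3.87, 3.64 and 3.39 and 4.83, 4.68, 4.67 and 4.19, with its other probe at 0.99 (0.90 ± 0.15, adjusted p = 0.00862). In these 3 genes no HFD array fell within the ND range. Rbm25, a splicing factor, rose by 0.75 ± 0.12, Arhgef3, a RhoA activator, by 0.84 ± 0.14, Dnajc9, a histone chaperone, by 0.94 ± 0.16, Notch4, an endothelial NOTCH receptor, by 0.77 ± 0.13 and the homeobox gene Lbx2 by 0.87 ± 0.14. Among the falls, Paics, of purine synthesis, read 4.50, 4.56, 4.30 and 4.32 and 3.90, 3.70, 3.54 and 3.62 (-0.73 ± 0.12, adjusted p = 0.00706), a narrow step called at neither duration in the fit of group means. Psmd11, a proteasome lid subunit, read 3.71, 3.87, 4.04 and 3.84 and 2.66, 3.19, 2.98 and 3.00 (-0.90 ± 0.15, adjusted p = 0.0093). Slco2a1, a prostaglandin transporter, fell by 0.93 (SE 0.16), Akap8, a nuclear kinase anchor, by 0.96 (SE 0.16) and Trmt10c, a mitochondrial tRNA methyltransferase, by 0.83 (SE 0.15). Adam32, Gdf3 and Pnma2 fell by 0.93, 0.81 and 0.82 with other probes at 0.30, 1.58 and 0.70. Over these 16 genes the adjusted p ran from 0.00706 to 0.0103, and each kept its call when any array was left out. They were picked for the smallest p, which favours this. Of all 4453 calls, 41% were kept without ND 3-month mouse 2 and 90.2% without HFD 9-month mouse 2, the lowest and highest shares. Gnptab, Selenot and Dnajc9 lost their calls with median centring and Adam32 without the duration covariate.

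**Figure D5:**
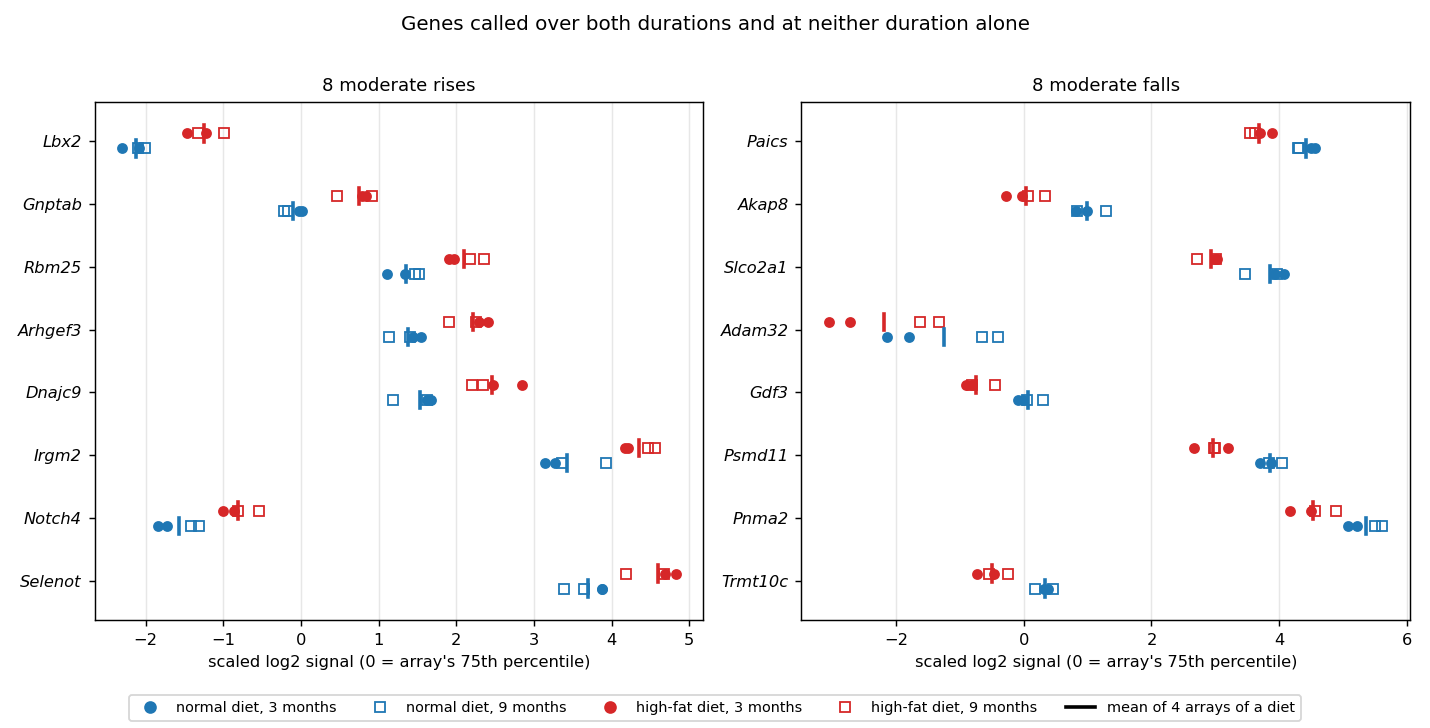
Scaled log2 signal (horizontal axes) of 8 moderate rises and 8 moderate falls on each of the 8 arrays, with ND in blue, HFD in red, 3 months filled, 9 months open and diet means as bars. The steps are below 1 and on the same side at each duration, as the choice of genes required. They are alike at both durations, and Adam32 also differs between the durations.

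Other calls named above also depended on single arrays. Of the 8 fits that left out 1 array, Egfl7 passed in 0, Pmaip1 and Saa3 in 1. Those that passed in 2 were Acot3, Atp5o, Cd3e, Cidec, Fcgr4, G6pc, Lpl, Onecut1, Slc51b and Tm7sf2. Those that passed in 3 were Cyp7b1, Fcgr2b, Id3, Spp1, Tef, Ugp2 and Vnn1. Those that passed in 4 were Ccng1, Cox5b, Ddit3, Dnajc3 and Irs2. The call was lost for Ccr2, Colec11 and Ctsk without ND 3-month mouse 1, Ass1, Gnmt, H2-Aa and Hadhb without ND 3-month mouse 2 and Cidea without ND 3-month mouse 1 or HFD 9-month mouse 1. The call was lost for Gss, Hnf4a, Hsd3b7, Pdgfrb and Slc30a1 without ND 3-month mouse 1 or ND 3-month mouse 2, Nqo1 without ND 3-month mouse 2 or ND 9-month mouse 2 and Pklr without ND 9-month mouse 2 or HFD 3-month mouse 2. The call was lost for Per3 and Tnnc2 without ND 3-month mouse 1, ND 3-month mouse 2 or HFD 9-month mouse 1, Pgd without ND 3-month mouse 1, ND 3-month mouse 2 or ND 9-month mouse 2 and Stab2 without ND 3-month mouse 1, ND 9-month mouse 2 or HFD 3-month mouse 1. The call was lost for Nr1d2 without ND 3-month mouse 2, ND 9-month mouse 2 or HFD 3-month mouse 1, Srebf1 without ND 3-month mouse 2, ND 9-month mouse 2 or HFD 9-month mouse 1 and Cftr without ND 9-month mouse 2, HFD 3-month mouse 1 or HFD 9-month mouse 1. Other settings ended further calls. Genes not called with median centring, among those that passed in 5 or more of the 8 fits, were Ass1, Canx, Colec11, Dnajc9, Gnmt, Gnptab, Gss, Hadh, Hadhb, Hnf4a, Hsd3b7, Nqo1, Nr1d2, Pdgfrb and Selenot. Without the duration covariate they were Adam32, Ass1, Ccl4, Cdc20, Gnmt, Hadhb, Hsd3b7, Lgals3, Mcm3, Mcm5, Pgd, Pklr, Plin4 and Srebf1. With quantile normalization they were Ass1, Gnmt, Hnf4a, Hsd3b7 and Serpina3k. With normexp background correction they were Ass1, Ccr2, Gnmt, Hadhb, Hnf4a, Hsd3b7, Meg3, Nqo1, Pgd, Serpina3k and Tnnc2. In the authors' value table they were Ass1, Ccl4, Ccr2, Ctsk, Gnmt, Hadhb, Hnf4a, Hsd3b7, Meg3, Nqo1, Pgd, Serpina3k and Tnnc2. In the authors' value table the differences were over 1.5 times smaller for Adam32 (-0.45), Atp6v0d2 (0.92), Ccl2 (1.91), Ccl4 (0.72), Cdc20 (0.80), Ctsk (0.46), Gnmt (-0.35), Hadhb (0.43), Hnf4a (-0.33), Hsd3b7 (-0.31), Itgax (1.62), Lbx2 (0.56), Lyve1 (1.13), Mcm5 (0.99), Myh2 (-0.73), Notch4 (0.50), Nqo1 (0.29), Onecut1 (-0.97), Per3 (0.64), Pgd (0.43), Pklr (1.03), Pmaip1 (0.97), Prf1 (-1.09), Serpina3k (-0.51), Slc51b (0.81), Tnnc2 (-0.21) and Trem2 (1.91).

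A few genes, picked for this, had fitted diet differences of opposite sign at 3 and 9 months, which a pooled difference cannot describe. At 3 months those of Pparg (SE 0.17) and Mapt (SE 0.19) were smaller than their standard errors. Car3, a carbonic anhydrase abundant in male liver and fat, read 9.55, 9.62, 5.51 and 5.69 on ND and 9.27, 9.21, 8.57 and 8.42 on HFD, a change of -0.35 at 3 and 2.89 at 9 months. The 9-month ND arrays lay below all others. Pparg, a regulator of fat storage, read 3.64, 3.71, 2.18 and 2.12 and 3.48, 3.65, 3.56 and 3.53 (-0.11 and 1.40), again with the 9-month ND arrays low. Zfp982 and Mapt were also lower or little different on HFD at 3 months and higher at 9 months (-0.34 and 1.46, -0.04 and 1.65). Ehhadh, of peroxisomal beta-oxidation, read 5.08, 4.89, 7.06 and 7.01 and 5.69, 5.92, 5.67 and 5.74 (0.82 and -1.33), with the 9-month ND arrays above the rest. Cyp4a32, a fatty acid hydroxylase, Acot5, a peroxisomal thioesterase, and Mt2, a metallothionein, changed by 1.06, 1.02 and 2.60 at 3 months and by -1.77, -2.30 and -1.12 at 9 months. None of the 8 passed the interaction test, with adjusted p from 0.146 to 0.271, so opposite diet effects were not shown.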

How the data were processed

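The authors deposited 1 Agilent single-colour scanner file per mouse (Feature Extraction 10.7.1.1, per the submitters' processing notes), holding a background-subtracted processed intensity and quality flags for each spot, per the file headers. The authors' deposited value table holds log2 values that are distributed almost alike from array to array (medians of 7.1424 to 7.1449), whose order within each array follows the median spot signal, and its normalization method is not given in the sources used here.

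Control spots and outlier-flagged spots were left out, and the log2 of processed intensity, with a pseudocount of 0, was scaled by subtracting the 75th percentile of its array. Spots of a probe were averaged, 25801 probes passed the filter (both mice of some group well above background), and the brightest probe stood for each feature. Symbols were updated through the RefSeq gene table (26056 probes, 19752 symbols). limma 3.58.1 in R 4.3.3 (lmFit, eBayes) was fitted with diet and duration, two-sided, with Benjamini-Hochberg adjustment over 20165 features and a threshold of 0.05, and again with the 4 group means for each duration and the interaction. The diet comparison over both durations was tested on artificial data, with a known log2 difference planted in 50 features at each size. It found 0 of 50 at a difference of 0.5, 12 at 1, 41 at 2 and 47 at 3, with 4 false calls.

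Named genes were the 12 largest rises and falls above background on all arrays, up to 5 bounds and 8 moderate changes per direction, the 4 smallest p-values of each list and 4 opposite effects per direction. Except for list members, these had a proper symbol and no disagreement among kept probes. Except for list members and opposite effects, they also had HFD arrays on 1 side of ND arrays at each duration. A few genes that this rule names are not reported here. The members and lists were chosen with earlier results of these data known. The alternatives changed the scaling, background correction, source of values, dim-probe filter, floor, probe choice, moderation, array weights, covariate and replicate block, and left out each array. Probe positions on the array's own genome build were not used here.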

Additional observations from a re-analysis of the deposited data

Results flagged for a closer look

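Of 378 sets of 4 arrays of 1 diet looked at, 17 (4.5%) held an array far from its 3 partners by Dixon's test, where chance gives about 1 in 20, and no difference between the durations was flagged among 187 genes. Values are scaled log2 signal. ND 9-month mouse 1 stood apart in Ccl2 (-0.37, against -3.06 to -2.70 on the other ND arrays), Sema4d (-3.39, against -4.41 to -4.36), Pdgfrb (-0.26, against -0.58 to -0.53), Slc4a2 (4.67, against 5.18 to 5.21) and Klf1 (-2.04, against -1.17 to -1.08). ND 9-month mouse 2 stood apart in Asns (4.98, against 1.58 to 2.08), Dnajc9 (1.19, against 1.62 to 1.68) and Scd2 (-1.24, against -0.38 to -0.27), and ND 3-month mouse 2 in Ddit3 (-1.65, against -0.80 to -0.69).

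On HFD, 9-month mouse 2 stood apart in Cd3e (1.94, against 0.0057 to 0.30), Egfl7 (4.90, against 4.16 to 4.21), Spp1 (-0.77, against 0.61 to 0.72) and Atp2a1 (-2.38, against -3.49 to -3.34). HFD 9-month mouse 1 did so in Slco2a1 (2.71, against 2.99 to 3.03), Lyve1 (1.50, against 0.57 to 0.61) and Per3 (-2.67, against -2.03 to -1.92), and HFD 3-month mouse 2 in Cftr (-0.58, against -1.54 to -1.39).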

How the results depend on the processing

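Median centring left 937 rises and 1961 features with HFD above ND at each duration, and dropping the dim-probe filter left 2386 calls, 1061 higher and 1325 lower. Without the duration covariate 1241 features were higher. Leaving out 1 array gave 1840 to 5949 calls, 748 to 2743 higher and 1092 to 3206 lower, lowest without ND 3-month mouse 2 and highest without HFD 9-month mouse 2, and all 4453 calls kept their sign in each of these 8 fits. The median over all features moved to 0.256 without the filter. Replicate numbers did not pair the arrays (correlation of deviations between the diets 0.0126 at 3 and -0.0181 at 9 months), and with a replicate block 3072 features were called, 1277 of them higher. The other 78 alternative counts stayed within 1.5 times. Among single genes 3465 values kept direction and side of the threshold, 369 lost the call and 58 gained it. The sign turned, for values never called, in Cyp4a32 (0.22), Acot5 (0.066), Ehhadh (0.17) and Klf1 (0.036) with array weights, in Klf1 without ND 9-month mouse 2 (0.14) or HFD 9-month mouse 2 (0.082), with a range of -0.26 to 0.14 over the arrays left out, and in Cela1 without ND 9-month mouse 1 (-0.095, range to 0.59). The cause was not tested. Values of dim probes are limited by signal over background, and 4 arrays a diet on 1 slide each limit the rest.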
